A study of Mus musculus with 2 samples.

Results

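B cells carrying a single productive heavy chain and 2 different productive light chains were described in the B-cell receptor repertoire of mouse Peyer's patches. Cells were taken as members when their barcode held exactly 1 productive heavy-chain CDR3 nucleotide sequence and exactly 2 distinct productive light-chain CDR3 nucleotide sequences, kappa (IGK) or lambda (IGL). The rule found 503 such two-light cells, 288 in the Cre+ library and 215 in the Cre- library, among 6151 cells with 1 heavy chain and at least 1 light chain. The other such cells were 5636 one-light cells, with 2967 in Cre+ and 2669 in Cre-, and 12 cells with more than 2 light chains.

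Mice behind the Cre+ library were H2-Ab1 fl/fl; Villin:Cre+ and lack an MHC class II beta chain in the gut epithelium, while those behind the Cre- library, titled WT, were H2-Ab1 fl/fl; Villin:Cre-, so both carry the floxed allele. The Villin promoter drives Cre in the gut epithelium, so the B cells themselves were not the targeted cells. Each library pooled CD45+ cells, enriched on magnetic columns, from the Peyer's patches of 4 adult female mice, and the mice within a pool cannot be told apart. Droplet 5′ V(D)J libraries gave 355258 immunoglobulin and T-cell receptor UMIs over 3748 barcodes in Cre+ and 355985 over 3245 barcodes in Cre-, a UMI being 1 captured transcript. With 1 library per genotype none of the differences can be set against replicates and no test was made, and all intervals are 95% intervals that cover counting error only.

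Each developing B cell rearranges heavy-chain genes first and light-chain genes afterwards, and allelic exclusion normally leaves it with a single productive light chain. When the first receptor is unproductive or binds self, receptor editing can rearrange the second kappa allele, replace the first rearrangement with an upstream V and a downstream J gene, or open the lambda loci. Cells that keep 2 productive light chains escaped exclusion at the light-chain level. In Peyer's patches many B cells in germinal centres switch their heavy chain from IgM and IgD to IgA, the antibody secreted into the gut.

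IGKC, the kappa constant gene, was called on 521 of 522 kappa chains of Cre+ two-light cells and on 388 of 388 of Cre- two-light cells. Members were chosen by the chain call, so this cannot show whether both light chains came from 1 cell. Contigs of T-cell receptor genes were present in 7 of 288 Cre+ cells and 4 of 215 Cre- two-light cells, and in 123 of 2967 Cre+ and 68 of 2669 Cre- one-light cells. The libraries shared 10 barcodes, none of them a two-light cell. The largest heavy-chain lineage held 64 cells in Cre+ (IGHV5-17 with IGHJ4) and 417 cells in Cre- (IGHV4-1 with IGHJ3), so results that these lineages move are also given without them. A lineage groups cells of 1 library that share IGHV, IGHJ and CDR3 length and whose CDR3s link at 85% nucleotide identity or more.

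The light-chain CDR3 sequences below are those the results turn on. Kappa genes lie on chromosome 6 and lambda genes on chromosome 16. Capitals mark the J-derived end, the last bases that at least 80% of one-light chains with that J gene share. The first 6 come from kappa V genes seldom seen in one-light cells, the next 4 from a pair of heavy-chain lineages whose cells repeat the same light-chain pair, and the last 3 are the main chains of the largest lineages and the light chain found in more two-light cells than any other.
IGKV11-125 IGKJ1: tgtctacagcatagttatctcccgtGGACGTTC
IGKV11-125 IGKJ5: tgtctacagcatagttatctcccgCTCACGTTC
IGKV8-16 IGKJ1: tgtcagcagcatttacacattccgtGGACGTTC
IGKV9-129 IGKJ5: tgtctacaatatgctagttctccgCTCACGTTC
IGKV5-45 IGKJ2: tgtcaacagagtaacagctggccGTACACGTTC
IGKV10-95 IGKJ1: tgtcagcagtatagtaagcttcGGACGTTC
IGKV1-117 IGKJ2: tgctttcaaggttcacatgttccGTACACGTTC
IGKV19-93 IGKJ1: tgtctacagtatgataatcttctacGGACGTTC
IGKV8-21 IGKJ2: tgcaagcaatcttataatctGTACACGTTC
IGKV16-104 IGKJ1: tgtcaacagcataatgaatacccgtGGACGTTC
IGKV4-72 IGKJ5: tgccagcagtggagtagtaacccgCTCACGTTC
IGKV9-123 IGKJ1: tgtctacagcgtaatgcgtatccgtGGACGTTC
IGLV1 IGLJ1: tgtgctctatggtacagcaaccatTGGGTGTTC

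Two-light cells were 8.83% (7.88 to 9.86) of Cre+ cells with 1 heavy chain and a light chain, and 7.44% (6.51 to 8.46) of such Cre- cells, a difference of 1.39 percentage points (-0.00675 to 2.77). With those largest lineages left out the shares were 8.94% in Cre+ and 8.22% in Cre-, with a difference of 0.721 (-0.779 to 2.20). Among unswitched cells alone they were 9.13% in Cre+ and 8.75% in Cre-, a difference of 0.381 (-1.23 to 1.97). Each of these intervals includes 0. Within the largest lineages second light chains were seldom seen: 2 of 62 Cre+ cells (3.23%) and 10 of 394 Cre- cells (2.54%, 1.22 to 4.62) of those lineages with a light chain had 2. The main chains of these lineages had low UMIs in one-light cells, with medians of 6.5 in Cre+ and 5 in Cre-. All one-light cells had medians of 29 and 28 light-chain UMIs. The low shares in these lineages therefore cannot be told apart from low depth.

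Both light chains were usually well covered by UMIs. The higher chain had a median of 33.5 UMIs in Cre+ and 36 UMIs in Cre-, and the lower chain a median of 15.5 UMIs in Cre+ and 16 UMIs in Cre-. The lower chain made up a median of 32.5% (30.4 to 34.2) of a cell's light-chain UMIs in Cre+ and 32.6% (30.6 to 35.9) in Cre-. Two-light cells carried a median of 52 light-chain UMIs in Cre+, against 29 in Cre+ one-light cells, and 53 in Cre-, against 28 in Cre- one-light cells, or 32 without the largest lineage. The medians of the total were thus more than 1.5 times those of one-light cells. That total sums 2 chains in two-light cells, so a higher value follows in part from the rule. The higher chain alone, at 33.5 and 36 UMIs, lay nearer to the one-light medians. The plot of higher against lower chain UMIs shows every two-light cell.

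**Figure D1:**
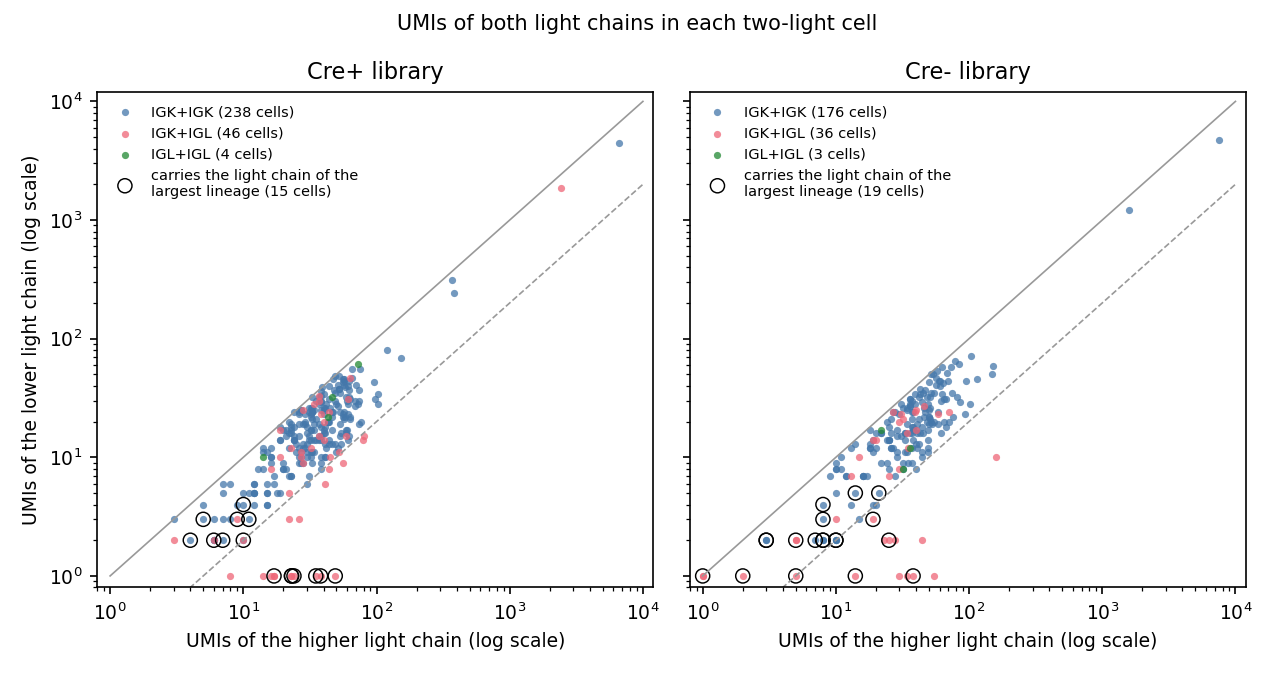
UMIs of the light chain with more UMIs (x axis, log scale) against UMIs of the light chain with fewer (y axis, log scale), 1 point per two-light cell, 288 in Cre+ and 215 in Cre-, by class of pair. Kappa pairs all lie at or above 20% of the higher chain, while pairs of kappa with lambda extend far below it.

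Heavy-chain UMIs were set against those of one-light cells and of barcodes with more than 1 heavy chain. The selection fixed the number of heavy chains at 1 but did not use their UMIs. The median was 9 heavy-chain UMIs in Cre+ two-light cells, against 8 in Cre+ one-light cells, and 9 in Cre- two-light cells, against 10 in Cre- one-light cells, or 9 without the largest lineage. The 145 Cre+ and 83 Cre- barcodes with 2 or more heavy chains had medians of 15 and 17, and 54.5% and 63.9% of them held 2 or more light chains. Two-light cells thus lay near one-light cells in heavy-chain UMIs. That they lay below those barcodes cannot be read apart from the rule, which allows members 1 heavy chain. In light-chain UMIs those barcodes had medians of 48 in Cre+ and 63 in Cre-. Two-light cells had 52 and 53, and one-light cells 29 and 28. Whether some two-light cells hold 2 cells was not tested. Among barcodes with a light chain and no heavy chain, 18 of 286 in Cre+ (6.29%) and 10 of 185 in Cre- (5.41%) held 2 light chains.

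The two-light share by heavy-chain UMIs was 7.07%, 8.60%, 9.78% and 10.1% in Cre+ cells with 1 to 4, 5 to 9, 10 to 19 and 20 or more. In Cre- cells it was 8.62%, 7.34%, 7.68% and 6.02% over the same ranges, and 8.24%, 7.51%, 8.60% and 9.15% without the largest lineage. The top range is the one that the largest Cre- lineage moved most. With 10 light-chain UMIs drawn from every cell that had them, an alternative chosen after seeing the data, the shares were 8.95% in Cre+ and 8.27% in Cre-. The same cells before drawing were at 9.36% and 8.67%, and 306 Cre+ and 509 Cre- cells with fewer UMIs were left out.

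Pairs of 2 kappa chains were by far the commonest class. They made up 238 of 288 Cre+ two-light cells (82.6%) and 176 of 215 Cre- two-light cells (81.9%). Pairs of kappa with lambda made up 46 Cre+ cells (16%) and 36 Cre- cells (16.7%), and pairs of 2 lambda chains 4 Cre+ cells (1.39%) and 3 Cre- cells (1.40%). The libraries differed by under 1 percentage point in each class.

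Kappa pairs and mixed pairs differed in how uneven their chains were. No kappa pair had a lower chain under 20% of the higher, which with 0 of 238 in Cre+ and 0 of 176 in Cre- allows shares of up to 1.26% and 1.70% by a limit of 3 counts of the total, used for every count of 0, while 2 Cre+ and 6 Cre- pairs sat at exactly 20%. The same bound held for every barcode of the deposited tables with 2 productive chains of a single locus, including 135 Cre+ and 82 Cre- barcodes with 2 heavy chains and 307 Cre+ and 234 Cre- barcodes with 2 kappa chains. No such bound showed between loci: 18 of 46 mixed pairs in Cre+ (39.1%, 25.1 to 54.6) and 11 of 36 in Cre- (30.6%, 16.3 to 48.1) were under 20%, down to 2.04% and 1.82%. The classes are therefore not counted on the same terms, and every comparison of mixed with kappa pairs below carries this limit.

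The low end of the mixed pairs held single UMIs. A lower chain of 1 UMI occurred in 11 Cre+ and 9 Cre- mixed pairs and in no kappa pair, and a lower chain of 3 UMIs or fewer in 17 Cre+ and 17 Cre- mixed pairs and in 12 Cre+ and 10 Cre- kappa pairs. In the middle of the distribution, the lower chain stood at a median of 28.8% of the higher in Cre+ mixed pairs and 39.8% in Cre- mixed pairs, and at 50% in the kappa pairs of both libraries. The lambda chain was the higher in 25 of 46 Cre+ and 19 of 36 Cre- mixed pairs. The plot of lower-chain percentages shows the bound at 20%.

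**Figure D2:**
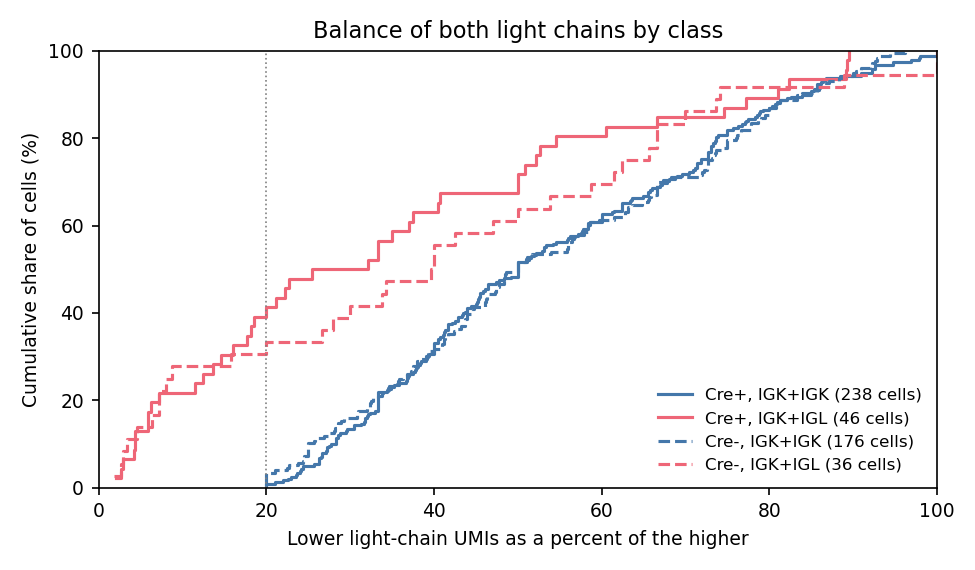
Cumulative share of cells (y axis) by the lower light chain as a percentage of the higher (x axis). Each curve is 1 library and 1 class, kappa pairs or mixed pairs. Kappa pairs start at 20%, and 18 of 46 Cre+ and 11 of 36 Cre- mixed pairs lie under it.

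Lambda, usually rearranged after kappa, was more frequent among the chains of two-light cells. Lambda chains were 9.38% of the light chains of Cre+ two-light cells, against 4.04% in Cre+ one-light cells, a difference of 5.33 points (2.95 to 8.10). In Cre- they were 9.77%, against 3.71%, a difference of 6.06 (3.31 to 9.34). With the 20% bound applied to every class, which was chosen after seeing the data, 28 Cre+ and 25 Cre- mixed pairs remained, and lambda was 6.64%, against 4.46%, in Cre+ (a difference of 2.19, 0.0804 to 4.72) and 7.6%, against 4.03%, in Cre- (a difference of 3.57, 1.05 to 6.66). The direction was the same under the bound and both differences were smaller. With a lower chain of at least 25% of light-chain UMIs the Cre+ difference was 2.16 and its interval included 0 (-0.0924 to 4.94). Without the largest lineages the differences were 5.31 in Cre+ and 4.94 in Cre-.

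IGLV1 was the commonest lambda V gene of two-light cells, as it was of one-light cells. IGLV1 was called in 38 of 54 lambda chains of Cre+ two-light cells (70.4%), against 73.3% in one-light cells, and in 28 of 42 of Cre- two-light cells (66.7%), against 61.6%. IGLV2 was called in 7 Cre+ and 5 Cre- chains and IGLV3 in 9 and 9. IGLJ1 was joined in 35 Cre+ and 26 Cre- chains, IGLJ2 in 16 and 13, and IGLJ3 in 3 and 3. The constant genes were IGLC1 in 35 Cre+ and 26 Cre- chains, IGLC2 in 15 and 12, and IGLC3 in 4 and 4. Of the 7 pairs of 2 lambda chains, 6 joined an IGLV1 with an IGLV3 chain, and the lower chain of those 6 had 8 to 61 UMIs with a median of 19.5. The IGLV1 IGLJ1 chain printed above was in 32 two-light cells, the most of any light chain. It was the lower chain in 8 of 19 such Cre+ cells, with a median of 11.5 UMIs in those 8. In Cre- it was the lower chain in 10 of 13 cells, with a median of 2 UMIs in those 10. At least 4 of the Cre- cells belonged to the largest lineage.

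The main light chain of each library's largest lineage recurred as a faint second chain in cells of other lineages. In Cre+ the IGKV4-72 IGKJ5 chain was in 15 two-light cells, 14 of them outside its lineage, spread over 13 IGHV genes. It was the lower chain in all 14, with 1 to 3 UMIs (median 1.5), and in 9 of them the partner was lambda. In Cre- the IGKV9-123 IGKJ1 chain was in 19 two-light cells, 10 of them outside its lineage over 8 IGHV genes. It was again the lower chain in all 10, with 1 to 5 UMIs (median 2), and in 4 of them the partner was lambda.

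Neither chain was in a two-light cell of the other library, as defined by V gene, J gene and CDR3. Both were seen in one-light cells of the other library, by V gene and CDR3. The IGKV4-72 chain was the only light chain of 5 Cre- cells (median 13 UMIs), and the IGKV9-123 chain that of 1 Cre+ cell (38 UMIs). The same CDR3 as that of the IGKV4-72 chain was called IGKV4-59 in 4 further two-light cells, 1 in Cre+ and 3 in Cre-, so the call between V genes is uncertain there. The count of 0 allows the IGKV4-72 chain up to 1.40% of Cre- two-light cells and the IGKV9-123 chain up to 1.04% of Cre+ two-light cells. Outside the lineages, 9 of 171 Cre+ cells with a lambda chain (5.26%, 2.43 to 9.76) and 4 of 137 Cre- cells with a lambda chain (2.92%, 0.801 to 7.31) also held their library's dominant kappa chain. Among cells with kappa chains only it was a second chain in 5 of 3029 Cre+ cells (0.165%) and 6 of 2358 Cre- cells (0.254%). Of the mixed pairs with a lower chain of 3 UMIs or fewer, 9 of 17 in Cre+ and 8 of 17 in Cre- held the dominant chain in either position. It was the lower chain in all 9 of these Cre+ cells but in only 4 of the Cre- cells. The other 4 Cre- cells belonged to the largest lineage, and their lower chain was IGLV1. Whether such single UMIs came from the cell itself or from free RNA was not tested.

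One further faint chain, chosen after its values were seen, was an IGKV10-96 IGKJ2 chain in 4 Cre+ mixed pairs at 3 UMIs or fewer. Its highest count elsewhere in the library was 2 UMIs, so no cell of the library held it at a high level.
IGKV10-96 IGKJ2: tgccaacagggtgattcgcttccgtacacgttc
It is printed with no base in capitals, so its J-derived end is not marked.

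A group of kappa V genes that one-light cells hardly used appeared in two-light cells. They are IGKV8-16, IGKV11-125, IGKV10-95, IGKV5-45 and IGKV9-129, chosen after their values were seen as the genes with fewer than 20 chains in two-light cells whose pooled share was higher there with intervals that do not overlap. Over all 94 IGKV genes the intervals were apart with a higher share in 6 (6.38%) and a lower share in 1 (1.06%, IGKV9-123). The other gene with a higher share was IGKV1-135. Without the largest lineages IGKV9-123 was among 7 genes with a higher share, so its direction turned, IGKV1-135 was no longer apart, and the 1 lower gene was IGKV10-96. The 5 seldom-used genes were among the 7. Since the 5 genes were picked by this contrast, their pooled shares are given as a description.

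IGKV8-16 was in 10 two-light cells, 6 in Cre+ and 4 in Cre-, against 2 one-light cells, both in Cre+. IGKV11-125 was in 9 two-light cells, 3 in Cre+ and 6 in Cre-, or 0.989% (0.453 to 1.87) of the pooled kappa chains. It was in 0 one-light cells, where a limit of 3 counts allows up to 0.0554% of kappa chains. IGKV9-129 was in 5 two-light cells, 3 in Cre+ and 2 in Cre-, or 0.549% (0.179 to 1.28). It was also in 0 one-light cells, with the same limit. Neither of the last 2 genes was called on the only productive light chain of any cell with 1 heavy chain. IGKV10-95 was in 7 two-light cells, 5 in Cre+ and 2 in Cre-, against 1 in Cre+ and 1 in Cre- among one-light cells. IGKV5-45 was in 7 two-light cells, 4 in Cre+ and 3 in Cre-, against 3 one-light cells, all in Cre+. The CDR3s of IGKV10-95 begin with the same bases as those of IGKV10-94, so the call between these near copies is uncertain. The printed IGKV9-129 IGKJ5 CDR3 was also called IGKV9-120, in 14 Cre+ and 7 Cre- one-light cells. The printed IGKV5-45 IGKJ2 CDR3 was also called IGKV5-43, in 7 Cre+ and 6 Cre- one-light cells. The V calls of IGKV9-129 and IGKV5-45 are thus uncertain too, and so are the counts and shares that rest on them.

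Together the 5 genes gave 21 of 522 kappa chains of Cre+ two-light cells (4.02%), against 6 of 2847 in Cre+ one-light cells (0.211%). In Cre- they gave 17 of 388 (4.38%), against 1 of 2570 (0.0389%). The next step was to choose genes in a single library and read them in the other. IGKV10-95 and IGKV8-16, the 2 genes of 88 (2.27%) with a higher share and intervals apart in Cre+, were 6 of 388 chains in Cre- two-light cells (1.55%), against 1 of 2570 in Cre- one-light cells (0.0389%), a difference of 1.51 points (0.515 to 3.30). The 5 genes of 91 (5.49%) with a higher share and intervals apart in Cre- (IGKV1-88, IGKV11-125, IGKV4-57-1, IGKV5-45 and IGKV8-16) were 19 of 522 chains in Cre+ two-light cells (3.64%), against 42 of 2847 in Cre+ one-light cells (1.48%), a difference of 2.16 (0.641 to 4.19). The summed share was thus higher in two-light cells also in the library that had not been used for the choice. Of the 5 genes chosen in Cre-, IGKV4-57-1 went the other way in Cre+, with 2 of 522 chains in two-light cells (0.383%), against 26 of 2847 in one-light cells (0.913%).

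These chains were not the faint ones of the dominant lineages. Their UMIs ran from 2 to 47 with a median of 19, and their partners had a median of 25.5. They were the lower chain in 20 cells and the higher chain in 18, although IGKV11-125 was the lower chain in 8 of 9. The partner was a kappa chain in all 21 Cre+ cells and in 16 of 17 Cre- cells. The heavy chain was IgM in 16 Cre+ and 9 Cre- cells, IgD in 2 and 7, and switched in 3 and 1. They were spread over 18 IGHV genes in Cre+ and 14 in Cre-, and 20 of 21 and 16 of 17 were alone in their heavy-chain lineage.

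The printed CDR3s come from such cells. The IGKV11-125 IGKJ1 chain was found in 2 Cre- cells, at 19 and 16 UMIs, and the IGKV11-125 IGKJ5 chain at 24 UMIs. The IGKV8-16 IGKJ1 chain was found in 1 Cre+ cell, at 38 UMIs, and in 2 Cre- cells, at 31 and 24 UMIs, so the same join recurred across the libraries.

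In one-light cells the same 5 genes were also seen as rearranged contigs that the tables do not mark as productive. Of their contigs in Cre+ one-light cells, 21 were nonproductive and 6 productive, and in Cre- one-light cells 25 were nonproductive and 1 productive. The low productive counts follow from the choice of the genes, so no share is read from them. By gene, IGKV8-16 had 7 such nonproductive contigs in Cre+ and 14 in Cre-, and IGKV9-129 had 2 and 0. In the RefSeq table of build GRCm38.p6 they lie apart from each other over the kappa locus of chromosome 6, at chr6:67839793-67840266 (IGKV9-129), chr6:67913573-67914052 (IGKV11-125), chr6:68680379-68680848 (IGKV10-95), chr6:69775750-69776306 (IGKV5-45) and chr6:70386672-70387238 (IGKV8-16).

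**Figure D3:**
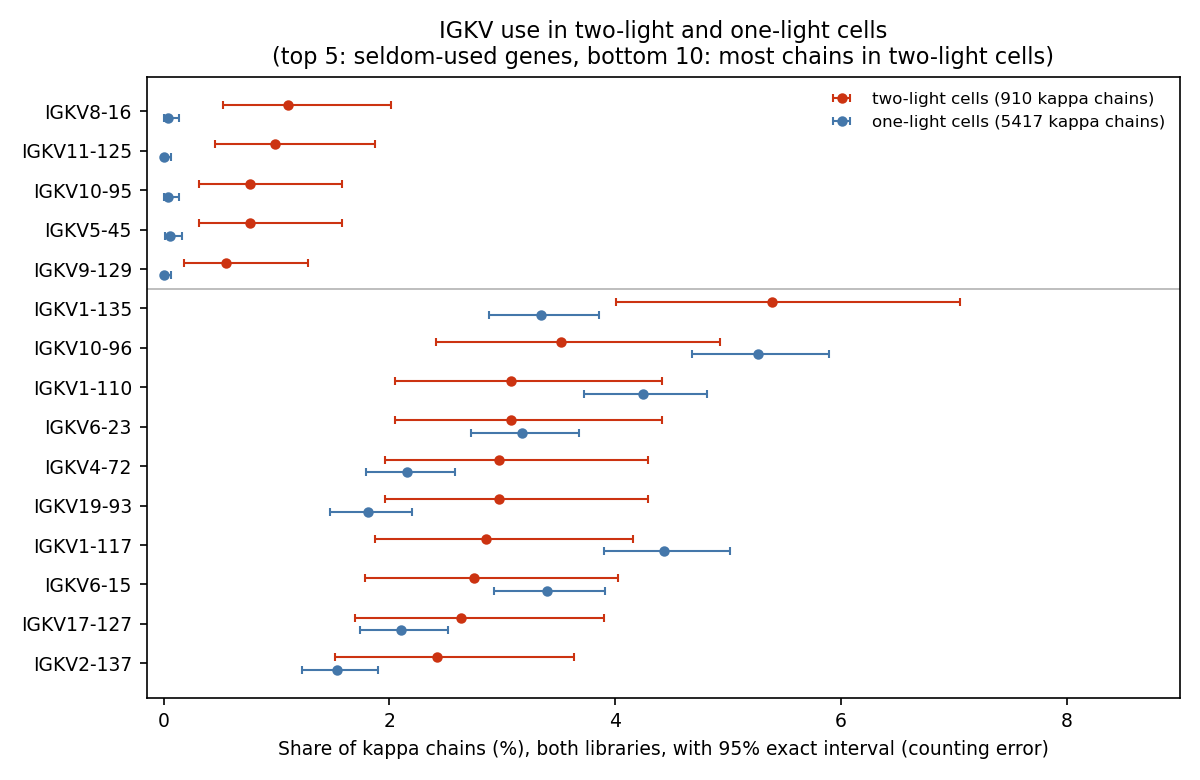
Share of kappa chains by IGKV gene in two-light cells, against one-light cells, with both libraries pooled and 95% exact intervals for counting error. The seldom-used genes sit near 0 in one-light cells and at 0.549% to 1.10% in two-light cells.

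The commoner kappa V genes differed less. Among the 13 genes with at least 20 chains in two-light cells, 1 (7.69%) was past 1.5-fold with intervals apart, IGKV1-135. It gave 49 chains in two-light cells, 5.38% (4.01 to 7.06), against 3.34% (2.88 to 3.85) in one-light cells, with 5.36% against 3.41% in Cre+ and 5.41% against 3.27% in Cre-. Without the largest lineages its ratio was 1.52 and the intervals overlapped. The ratios of the 13 genes ran from 0.645 to 1.64 with a median of 1.02.

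The other genes of the 10 with most chains were IGKV10-96 (32 chains, 3.52% in two-light and 5.26% in one-light cells), IGKV1-110 (28 chains, 3.08% and 4.25%), IGKV6-23 (28 chains, 3.08% and 3.18%) and IGKV19-93 (27 chains, 2.97% and 1.81%). After them came IGKV4-72 (27 chains, 2.97% and 2.16%), IGKV1-117 (26 chains, 2.86% and 4.43%), IGKV6-15 (25 chains, 2.75% and 3.40%), IGKV17-127 (24 chains, 2.64% and 2.10%) and IGKV2-137 (22 chains, 2.42% and 1.53%). Their intervals overlapped in every case with all cells in. Without the largest lineages IGKV4-72 was past the rule as higher and IGKV10-96 as lower. Two-light cells used 89 IGKV genes and one-light cells 86.

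Few pairs of V genes repeated. Of 405 distinct pairs, 337 were seen in 1 cell. The most frequent were IGKV4-72 with IGLV1 in 8 cells, all Cre+, IGKV9-123 with IGLV1 in 7 cells, all Cre-, and IGKV10-96 with IGLV1 in 6 cells, all Cre+. IGLV1 with IGLV3 was in 6 cells and IGKV1-117 with IGKV19-93 in 5. The top pairs thus include those with each library's dominant kappa chain. Over single chains, 492 distinct combinations of V gene, J gene and CDR3 were seen, 308 of them in 1 two-light cell and 42 in 5 or more.

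Most of the chains were also known from one-light cells. The lower chain of 80.6% of Cre+ and 75.8% of Cre- two-light cells was the only light chain of another cell in the same library, and the higher chain of 83.0% and 80.5%. Against the other library the lower chain was found in 75.3% of Cre+ and 74.0% of Cre- cells. No such share was computed for the chains of one-light cells, so whether these shares are high or low cannot be read. Exact pairs were seldom shared, with 2 light-chain pairs common to the 277 distinct ones of Cre+ and the 209 of Cre-.

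The J genes tell how far along the kappa locus a rearrangement reached, since IGKJ1 lies nearest to the V genes and IGKJ5 farthest. IGKJ1 made up 27.2% of kappa chains in Cre+ two-light cells, against 30.1% in Cre+ one-light cells, and 31.4% in Cre- two-light cells, against 38.6%. The Cre- difference was -7.19 points (-12.2 to -1.96), and it was 1.57 in the opposite direction without the largest lineage, whose main chain uses IGKJ1. IGKJ2 made up 28.2%, against 30.7%, in Cre+ and 28.9%, against 29.0%, in Cre-. IGKJ4 made up 16.5%, against 13.5%, and 13.7%, against 10.9%, and IGKJ5 28.2%, against 25.7%, and 26.0%, against 21.5%. IGKJ3, a pseudogene in mice, was called in 0 of 910 chains, which allows a share of up to 0.330%. No J gene stood apart in a way that held without the largest lineages.

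Within kappa pairs, 64 of 238 in Cre+ (26.9%) and 44 of 176 in Cre- (25%) used the same J gene on both chains. Where the J genes differed, the chain with the more downstream J could carry the more upstream V. It did so in 92 of 174 Cre+ pairs (52.9%, 45.2 to 60.5) and in 56 of 132 Cre- pairs (42.4%, 33.9 to 51.3). Both intervals include an even split. A second rearrangement on a single allele replaces the first, whereas both chains of these pairs were present and productive. The order of V and J between them therefore cannot show such a replacement, which was not tested.

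IGKJ4 was the J gene of 13% of lower chains and 20.6% of higher chains of Cre+ kappa pairs, and 13.1% of lower and 14.8% of higher chains of Cre- kappa pairs. Paired within cells, it was on the higher chain alone in 39 of the 60 Cre+ pairs that used it once (65%, 51.6 to 76.9) and in 23 of 43 such Cre- pairs (53.5%, 37.7 to 68.8). Over all classes only 1 pair in each library used the same V gene on both chains, a kappa pair in Cre+ and a lambda pair in Cre-. Near-identical chains within 2 mismatches were in 0 of 503 cells, which allows up to 0.596%.

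Cells with 2 productive kappa chains held fewer nonproductive kappa rearrangements beside them. A nonproductive contig with a V and a J gene was in 10 of 238 Cre+ kappa pairs (4.2%), against 9.34% of Cre+ one-light kappa cells, a difference of -5.14 points (-7.59 to -1.59). In Cre- it was in 4 of 176 (2.27%), against 8.60%, a difference of -6.33 (-8.34 to -2.72). The differences were -5.73 and -7.71 without the largest lineages. Kappa pairs were selected for 2 productive kappa chains, which leaves less room for a nonproductive one. Their lower shares thus follow in part from the rule. In one-light lambda cells such a contig was in 24 of 120 Cre+ cells and 20 of 99 Cre- cells (20.2%), the highest share of the 3 kinds of cell.

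Most two-light cells were unswitched. In Cre+, of 286 two-light cells with a constant gene called, 171 were IgM, 93 IgD, 15 IgA, 5 IgG2b and 2 IgG1. In Cre-, of 214 such cells, 133 were IgM, 63 IgD, 12 IgA and 6 IgG2b. IgG1 was at 0 of 214 in Cre- and IgG3 at 0 of 286 in Cre+ and 0 of 214 in Cre-, which allows shares of up to 1.40%, 1.05% and 1.40%. The two-light share was alike in IgM and IgD cells, at 8.96% and 9.48% in Cre+ and at 8.72% and 8.82% in Cre-.

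IgM and IgD together were 92.3% of Cre+ two-light cells, against 88.8% of Cre+ one-light cells, a difference of 3.52 points (-0.362 to 6.58). In Cre- they were 91.6%, against 76.6%, a difference of 15 (10.1 to 18.7). The largest Cre- lineage is IgA and mostly one-light, and without it the Cre- shares were 95.6%, against 89.5%, a difference of 6.07 (2.09 to 8.78). The Cre- difference was thus smaller without that lineage and its interval still excluded 0.

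IgA was the isotype in which the libraries stood apart. IgA made up 5.24% of Cre+ two-light cells, against 6.30% of Cre+ one-light cells, a difference of -1.06 (-3.52 to 2.31), which was 0.650 (-1.79 to 4.01) without the largest lineage. In Cre- it made up 5.61%, against 19.4%, a difference of -13.8 (-16.8 to -9.50), which was -4.29 (-5.85 to -1.39) without the largest lineage. Read the other way and without the largest lineages, 15 of 150 Cre+ IgA cells had 2 light chains (10%, 5.71 to 16) and 3 of 134 Cre- IgA cells (2.24%, 0.464 to 6.4), a difference of 7.76 points (1.78 to 14.0). With those lineages in, it was 15 of 202 in Cre+ (7.43%) and 12 of 527 in Cre- (2.28%). Counted by lineage it was 13 of 121 in Cre+ (10.7%) and 3 of 115 in Cre- (2.61%).

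Against unswitched cells of the same library, IgA cells without the largest lineage differed in two-light share by 0.865 points in Cre+ (-3.57 to 6.91) and by -6.52 points in Cre- (-8.68 to -2.20). All switched cells together gave 21 of 301 in Cre+ (6.98%) and 9 of 247 in Cre- (3.64%), a difference of 3.33 whose interval ran from -0.763 to 7.34. The gap was thus in IgA and rests on 15 and 3 cells from 1 library each, with no replicate, so a difference between genotypes and one between pools of mice cannot be told apart. IgG2b showed no such gap, with 5 of 96 cells in Cre+ (5.21%) and 6 of 92 in Cre- (6.52%). The plot of two-light share by isotype shows IgA beside the others.

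**Figure D4:**
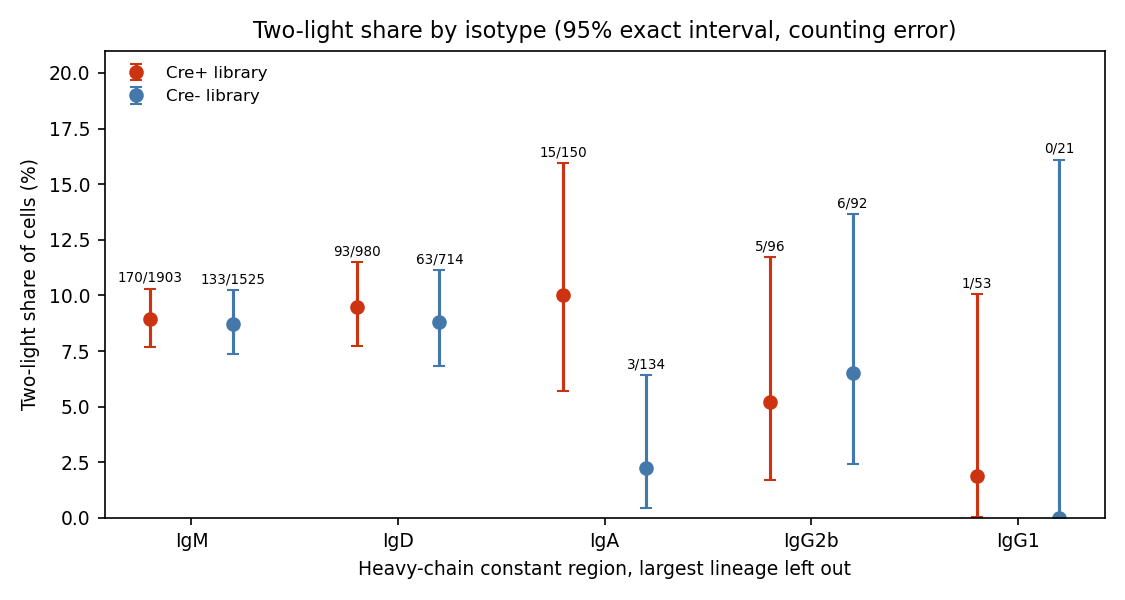
Two-light share of cells with 1 heavy chain and a light chain, by heavy-chain constant gene, in the Cre+ and Cre- libraries without their largest lineages. Bars are 95% exact intervals for counting error and the labels give two-light cells over all cells, with 15 of 150 IgA cells in Cre+ and 3 of 134 in Cre-.

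Some two-light cells had lineage mates with the same pair of light chains. The two-light cells fell into 283 heavy-chain lineages in Cre+ and 205 in Cre-, and 266 Cre+ and 195 Cre- two-light cells were alone in theirs. Of those with lineage mates, 9 of 22 in Cre+ and 12 of 20 in Cre- shared a light chain with a mate. In each library 2 lineages held at least 2 cells with the same light-chain pair.

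With all cells two-light, the brightest in Cre+ was an IGHV1-19 IgA lineage of 3 Cre+ cells, all of them with IGKV1-117 IGKJ2 and IGKV19-93 IGKJ1 as printed above. Its cells had 6620 and 4436 UMIs of the 2 chains, then 381 and 242, then 119 and 81, beside 1355, 99 and 20 heavy-chain UMIs. The lower chain made up 40.1%, 38.8% and 40.5% of the light-chain UMIs. The balance of the chains was thus nearly the same in cells that differed widely in UMIs. They shared 1 heavy-chain CDR3, from chromosome 12, printed with no base in capitals.
IGHV1-19 IGHJ2: tgtgcaagatccatgacggactactgg

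An IGHV14-1 IgG2b lineage in Cre- had 2 cells, both with IGKV8-21 IGKJ2 and IGKV16-104 IGKJ1, at 7536 and 4760 UMIs in 1 cell and 10 and 5 in the other, beside 1581 and 4 heavy-chain UMIs. An IGHV1-69 IgG2b lineage of 3 Cre+ cells had 2 with IGKV10-94 and IGKV3-12, at 17 and 6 UMIs and at 10 and 5. In the largest Cre- lineage, IGHV4-1 and IgA, 4 cells paired IGKV9-123 with IGLV1 and 2 paired it with IGKV10-94. Their UMIs were low, at 5 and 2, 5 and 1, 2 and 1, and 1 and 1 for the lambda pairs, and at 8 and 2 and 3 and 2 for the kappa pairs. The repeated pairs of that lineage thus lie at the faint end, unlike those of the IGHV1-19 and IGHV14-1 lineages. In both of those lineages 1 cell far exceeded its mates in UMIs, and whether the fainter barcodes hold RNA of the brightest was not tested.

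**Figure D5:**
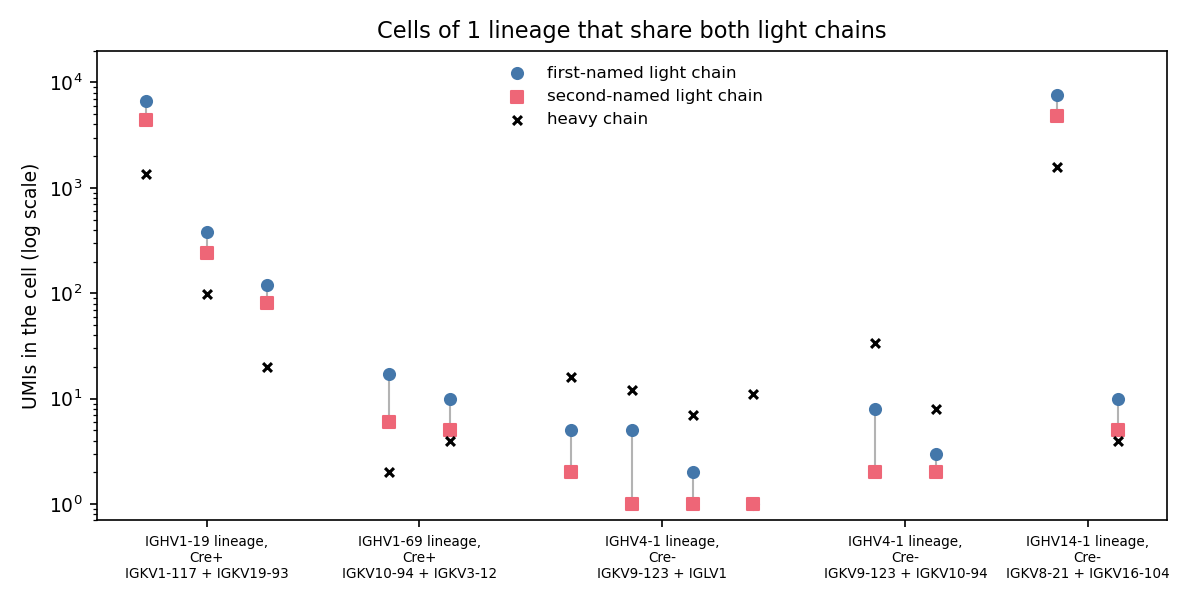
UMIs of both light chains and of the heavy chain (crosses; y axis, log scale) in each cell of the heavy-chain lineages whose cells repeat the same light-chain pair, 2 lineages in Cre+ and 2 in Cre-. The 3 IGHV1-19 cells keep the lower chain near 40% of light-chain UMIs, and the IGHV4-1 cells have 1 to 8 UMIs per chain.

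The barcodes with the most UMIs in their lower chain held from 71 to 4760 UMIs of it. In Cre+ they were the brightest IGHV1-19 cell, an IGHV14-3 IgA cell with 2430 UMIs of IGKV6-23 and 1878 of IGLV2 (43.6% lower), and an IGHV1-69 IgM cell with 369 of IGKV1-117 and 315 of IGKV1-135. In Cre- they were the brighter IGHV14-1 cell, an IGHV5-16 IgA cell with 1587 of IGKV15-103 and 1206 of IGKV4-51 (43.2% lower), and an IGHV1-76 IgM cell with 104 of IGKV3-7 and 71 of IGKV14-100. Of these 6 cells 4 were switched, 3 of them IgA.

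The heavy chains of two-light cells showed few differences from those of one-light cells. The commonest heavy V genes were IGHV1-26 (4.86% of Cre+ two-light cells, against 6.81% of one-light cells, and 6.05%, against 5.13%, in Cre-), IGHV1-82 (4.17%, against 3%, and 4.19%, against 2.88%) and IGHV3-6 (2.78%, against 3.37%, and 4.65%, against 3.41%). IGHV1-80 was at 2.78%, against 2.29%, in Cre+ and 4.19%, against 3.11%, in Cre-, and IGHV9-3 at 2.43%, against 3.13%, and 3.72%, against 2.51%. Of 95 IGHV genes, 0 (0.0%) had a higher share in two-light cells with intervals apart, and 1 (1.05%) a lower share, IGHV4-1, the gene of the largest Cre- lineage, which was also the 1 of 90 (1.11%) that was lower in Cre- alone. Without the largest lineages no IGHV gene was apart in either direction. The median heavy CDR3 length was 14 amino acids in two-light and one-light cells of both libraries, and 15 in Cre- two-light cells, against 14 in Cre- one-light cells, without the largest lineage.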

How the data were processed

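The deposited contig tables of both libraries were used, with 1 row per assembled chain, and the clonotype tables as a check. Their values are counts of reads and UMIs per contig and counts of barcodes per clonotype, deposited by the authors with no normalization, per the file headers. Contigs came from Cell Ranger with build GRCm38, per the submitters' processing notes; its version was not given in the labels used. The clonotype tables gave the same 288 and 215 barcodes.

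Python 3.11.15, pandas 2.3.3, NumPy 2.4.6, SciPy 1.17.1 and Matplotlib 3.10.9 were used. Members and gene lists were chosen with earlier results of these data known. Shares have exact Clopper-Pearson 95% intervals, differences an interval combined from both exact ones, and medians an order-statistic interval; a count of 0 has the limit that 3 counts give. Amplified reads are not independent molecules, so intervals cover counting error only. Lineages were single-linkage groups at 85% CDR3 identity. Named were all constant, IGKJ, IGLV, IGLJ and IGLC genes, the 10 IGKV and 5 IGHV genes with most chains, IGKV genes with at least 20 chains past 1.5-fold with intervals apart, the 5 commonest V pairs, lineages that repeat a pair, and 3 cells per library with the brightest lower chain. The steps were tested on simulated data. No doublet caller was run, and barcodes with 2 or more heavy chains were left out.

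Alternatives were a UMI minimum of 3, a lower chain of at least 10% or 25%, unswitched cells, each lineage once, and leaving out the largest lineage or its main light chain. The series' design text gives the same genotype for both groups, against the sample labels, which were followed. H2-Ab1 was not measured here, and gene expression was not used, so genotype and cell type were not checked beyond the receptor chains. 94 of 94 IGKV names matched the RefSeq table of GRCm38.p6.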

Additional observations from a re-analysis of the deposited data

Results flagged for a closer look

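The median heavy-chain UMIs of two-light cells minus those of one-light cells had opposite signs in the libraries, 1 in Cre+ (9 and 8 UMIs) and -1 in Cre- (9 and 10 UMIs), and this difference was not tested. Without the largest lineage the Cre- medians were 9 and 9.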

How the results depend on the processing

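No paired analysis was possible because the groups share fewer than 2 replicate numbers. For 36 results 202 alternatives were computed; 172 of them moved by no more than the counting error (counts, by no more than 1.5 times), and the others follow, the causes not being tested. With a lower chain of at least 25% of light-chain UMIs the two-light share was 6.96% in Cre+ and 5.82% in Cre-, kappa pairs 88.5% and mixed pairs 9.69% of Cre+ two-light cells, the lower chain's median share 36.6% and 37.8%, and the Cre+ lambda difference 2.16 (-0.0924 to 4.94). With the bound at 20% of the higher chain in every class, chosen after seeing the data, kappa pairs were 88.2%, mixed pairs 10.3% and the lambda difference 2.19 in Cre+. With at least 3 UMIs per chain, Cre- kappa pairs were 87.5%, mixed pairs 10.9% and the lambda difference 2.98. The Cre- two-light share was 8.75% in unswitched cells and 8.51% with each lineage once. Without the largest lineage and without its main light chain, the Cre- values were -4.29 and -4.98 for the IgA difference, 6.07 and 6.59 for IgM plus IgD, 1.57 and -0.0908 for IGKJ1, and 9 in both for the heavy-chain UMIs of one-light cells. The IGKV genes past 1.5-fold numbered 2 in place of 1 under 4 alternatives (3 UMIs, the largest lineage out, its main chain out, the 20% bound). The Cre- repeats of a lineage and light-chain pair numbered 1 in place of 3 under the first 3 of these, which were added after seeing the data for both counts. The difference for the 5 seldom-used kappa V genes ran from 3.81 to 4.21 points in Cre+ and from 4.34 to 4.72 in Cre-. Those genes were chosen by this contrast in the same cells, so its direction under each setting follows from the choice. Depth limits lower chains of 1 to 3 UMIs most.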

Other observations

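A nonproductive lambda contig with no V gene called was in 47.5% of Cre+ and 45.5% of Cre- kappa pairs, against 40.2% of Cre+ and 38.9% of Cre- one-light kappa cells. It was in 17.4% of Cre+ and 2.78% of Cre- pairs of kappa with lambda, against 12.5% of Cre+ and 4.04% of Cre- one-light lambda cells; whether such contigs are partial assemblies was not tested. The mean net charge of the heavy CDR3 was -0.323 in Cre+ two-light cells, against -0.343 in Cre+ one-light cells, and -0.293, against -0.0330, in Cre-, where it was -0.405, against -0.375, without the largest lineage.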
